A study of Mus musculus with 12 samples.

Results

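The 48 genes described here encode the ribosome factory of the cell: the RNA polymerase I machinery, the small nucleolar ribonucleoproteins (snoRNPs), the assembly factors of both ribosomal subunits, abundant nucleolar proteins, and 3 enzymes of polyamine and pyrimidine synthesis that growing cells use alongside them. They were chosen by name, with earlier results of these data known, so their counts describe them and are no separate support. All 48 had a probe set of their own, out of 18193 genes that did. RNA came from B16-OVA in culture, a melanoma line of the mouse with ovalbumin added as a model antigen. By the labels, all groups were of this 1 line and differed in agent and time. A spiked-in labelling control also differed between the times, as given below, so processing of the arrays may differ with time. Cells received the MEK inhibitor (MEKi) GDC-0623 at 100 nM, or its solvent DMSO, and were harvested after 24 h or 72 h, with 3 arrays in each of the 4 groups. The labels number the replicates but do not say whether each was a culture of its own, so the p-values reflect how far these samples scatter, and that scatter may be technical.

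Making a ribosome begins in the nucleolus, where RNA polymerase I copies the ribosomal DNA into a long precursor RNA. Guided by snoRNPs, this precursor is methylated and pseudouridylated, cut and folded while assembly factors load ribosomal proteins to form the small and large subunits, which leave for the cytoplasm to mature. In growing cells the process takes up much of the transcription, and both the ERK pathway below MEK and the transcription factor MYC are known to promote it.

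Values are log2 signals after robust multi-array averaging (RMA), a normalization that makes the arrays' distributions alike. Of a gene with several probe sets the brightest was used. A log2 difference is given with its moderated standard error (SE) from limma, a linear model fitted to all probe sets, and a gene was called where the Benjamini-Hochberg adjusted p was under 0.05. The members were well expressed: their means over the 12 arrays ran from 7.54 to 13.26 with a median of 10.14, and all 48 lay above the median probe set at 5.363. The 12 melanocyte markers measured were all above that median, as against 3 of 11 leukocyte, 3 of 8 fibroblast, 1 of 7 endothelial and 1 of 7 epithelial markers. Because equal amounts of RNA were labelled, a change in RNA per cell would not be seen, and fewer cells with a transcript cannot be told apart from less of it per cell.

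By their median over the members, the arrays were highest in 24 h DMSO, lower in 24 h MEKi and lowest at 72 h. There the DMSO and MEKi arrays overlapped. The median over the members of each array's log2 value, minus the gene's mean in 24 h DMSO, was -0.02, 0.01 and 0.01 in 24 h DMSO, and -0.51, -0.49 and -0.29 in 24 h MEKi. It was -0.67, -0.57 and -0.70 in 72 h DMSO, and -0.78, -0.69 and -0.69 in 72 h MEKi. Expression was thus highest in 24 h DMSO cells, which had the highest group mean for 48 of 48 members. Lowest was 72 h MEKi for 33 members, 72 h DMSO for 14 and 24 h MEKi for 1. Replicate 3 of 24 h MEKi stood nearer to DMSO than its partners did: it was the highest of the 3 MEKi arrays for 45 members, and for 9 of the 11 ERK output genes that were called lower at that time.

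**Figure D1:**
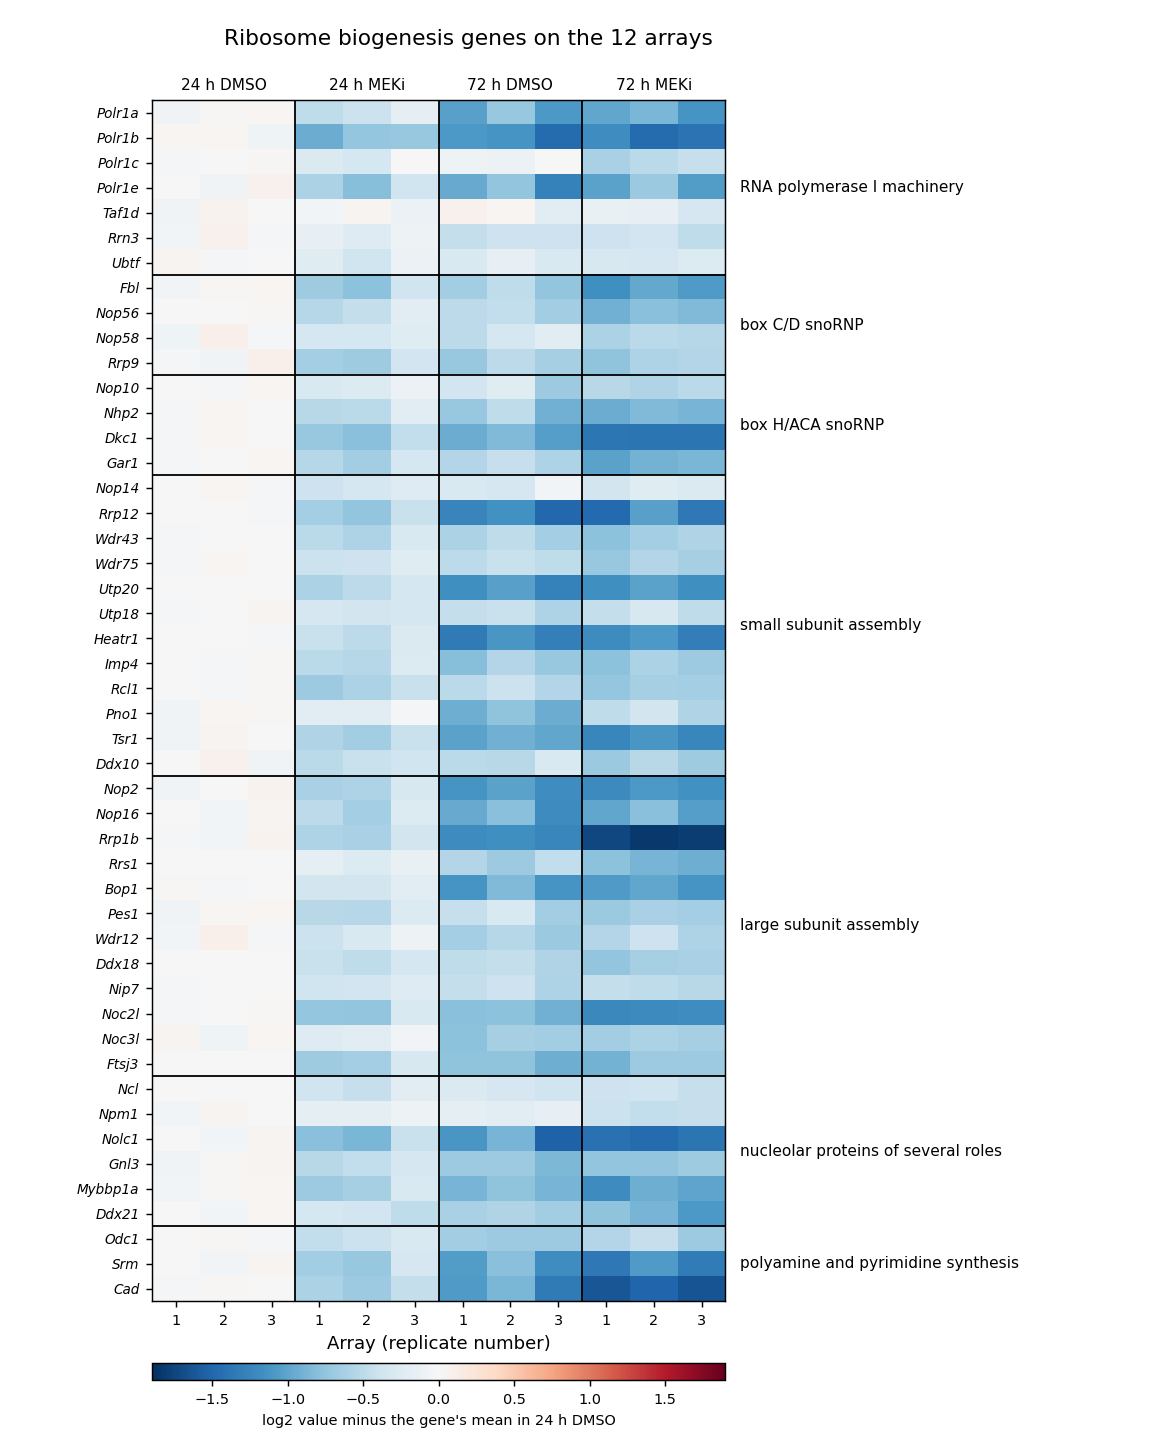
Each row is 1 of the 48 members, ordered by role, and each column 1 of the 12 arrays. Colour gives the log2 value minus the gene's mean in 24 h DMSO, with blue for lower. For most genes the columns of 24 h MEKi are paler than those of either 72 h group, and replicate 3 is the palest of them.

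MEKi and DMSO samples were first compared at 24 h. Most of these genes were lower with the inhibitor: 38 of the 48 members were called lower in MEKi than in DMSO and 0 higher. Of all genes 5.86% were called lower and 5.01% higher. At an unadjusted p under 0.05, 44 were lower and 0 higher. No share of all genes was counted at that threshold, here or for the later unadjusted counts. The sign was negative for 48 of 48, with a median log2 difference of -0.42 against 0.01 over all genes, so the direction was shared and the sizes modest, from -0.03 to -0.80. For 44 members all MEKi arrays lay below all DMSO arrays, which 18.3% of all genes did. Shares over all genes include dim ones, whereas all 48 members lay above the median probe set. In a fit of only the 22514 probe sets above that median, 3663 were called lower at 24 h, and 41 members were. The number of calls fell when any 1 array other than MEKi replicate 3 was left out. It was 19, 20 and 15 without DMSO replicate 1, 2 and 3, 10 without MEKi replicate 1, 15 without MEKi replicate 2 and 42 without MEKi replicate 3, and the 9 called in every one of these fits were Polr1b, Dkc1, Rrp12, Utp20, Rcl1, Tsr1, Ddx10, Ddx18 and Cad. Over all 45037 probe sets lower calls also fell, from 2077 to between 504 and 881, or rose to 2818 without MEKi replicate 3. The members' median log2 difference stayed between -0.496 and -0.387 in these fits. The 18S rRNA control probe sets, averaged per array, read 12.13, 12.35 and 12.14 in 24 h DMSO and 12.57, 12.63 and 12.43 in 24 h MEKi, so they moved the other way, and their part in the result was not tested.

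In the polymerase I group, 3 of 7 members were called lower at 24 h, all of them subunits of the enzyme itself. Polr1b, the second-largest subunit, read 9.22, 9.22 and 9.09 in DMSO and 8.24, 8.44 and 8.45 in MEKi. The groups were far from overlapping, and this was the largest fall among the members, 1.74-fold (log2 difference -0.80 ± 0.08 SE, adjusted p = 0.0023). Polr1e, a subunit particular to polymerase I, read 8.47, 8.42 and 8.56 against 7.88, 7.68 and 8.11 (-0.59 ± 0.11, adjusted p = 0.0147). The largest subunit, Polr1a, read 9.68, 9.77 and 9.78 against 9.26, 9.33 and 9.56 (-0.36 ± 0.09, adjusted p = 0.0405). In all 3 genes the DMSO arrays lay above every MEKi array. Polr1a has 4 dimmer probe sets, of which the dimmest went the other way with a value near 0 (0.02 ± 0.07, adjusted p = 0.912). The Polr1a call was near the threshold: it held in only 1 of 6 fits without 1 array, and ended with all 12 arrays in 1 fit (adjusted p = 0.0583), with a second quantile normalization (adjusted p = 0.0544) and with the mean over its probe sets (adjusted p = 0.0503).

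The other 4 members of that group did not pass. Rrn3 (TIF-IA), which brings the polymerase to the promoter and is itself known as a substrate of ERK at the protein level, read 9.97, 10.10 and 9.99 in DMSO and 9.86, 9.78 and 9.92 in MEKi (-0.17 ± 0.07, adjusted p = 0.187). For Ubtf, the upstream binding factor of the ribosomal DNA, the arrays read 9.93, 9.84 and 9.88 against 9.66, 9.51 and 9.77 (-0.24 ± 0.08, adjusted p = 0.109). In both genes the MEKi arrays lay below all DMSO arrays but by little. Polr1c, a subunit that polymerase I shares with polymerase III, gave -0.20 ± 0.09 (adjusted p = 0.233). Taf1d, part of the promoter selectivity factor SL1, read 8.93, 9.07 and 8.99 against 8.95, 9.05 and 8.89, which overlapped throughout (-0.03 ± 0.07, adjusted p = 0.835). Another of its 7 probe sets gave 0.02 ± 0.08.

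Among the snoRNP proteins, 7 of 8 were called lower at 24 h. All 4 proteins of the box C/D class, many of whose snoRNPs carry out 2'-O-methylation of rRNA, were among them. Their methyltransferase fibrillarin, Fbl, read 12.14, 12.21 and 12.23 in DMSO and 11.52, 11.42 and 11.81 in MEKi, with no overlap (-0.61 ± 0.10, adjusted p = 0.011). The core proteins Nop56 and Nop58 gave -0.40 and -0.30, of which Nop58 was not called with the replicate number as a block (adjusted p = 0.0641) and held in 1 of 6 fits without 1 array, and Rrp9, which binds the U3 snoRNA, gave -0.56. Of the 4 box H/ACA proteins, which pseudouridylate rRNA, the pseudouridine synthase dyskerin, Dkc1, fell most: it read 11.57, 11.63 and 11.58 against 10.88, 10.80 and 11.12 (-0.66 ± 0.09, adjusted p = 0.0055). Its partners Gar1 (-0.51) and Nhp2 (-0.41) were called as well, and Nop10 was not (-0.23 ± 0.07, adjusted p = 0.0844).

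Small subunit assembly was lowered nearly as a block, with 11 of 12 members called and a median of -0.44. Rrp12, needed for export and maturation of the particles, read 8.35, 8.35 and 8.31 in DMSO and 7.69, 7.58 and 7.92 in MEKi, again without overlap (-0.61 ± 0.09, adjusted p = 0.00767). Next came Rcl1 (-0.57), the late factor Tsr1 (-0.55) and Utp20 (-0.48). The remaining 7 called members, Wdr43, Ddx10, Imp4, Heatr1, Wdr75, Utp18 and Nop14, which work in the processome around the U3 snoRNA, ran from -0.46 to -0.32. Heatr1 and Wdr75 were not called where their probe sets were averaged. Pno1, a late factor of the pre-40S particle, was the exception: it read 10.93, 11.04 and 11.02 against 10.79, 10.80 and 10.98, and its groups overlapped (-0.14 ± 0.07, adjusted p = 0.31).

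Large subunit assembly had 9 of 12 members called lower at 24 h, with a median of -0.43. Noc2l, a nucleolar complex protein, fell most in fold but varied with it: DMSO arrays read 9.43, 9.45 and 9.48 and MEKi arrays 8.72, 8.70 and 9.17 (-0.59 ± 0.12, adjusted p = 0.0227). It was called in only 1 of the 6 fits that left out 1 array, the one without MEKi replicate 3, and not with the mean over its probe sets. The rRNA methyltransferases Ftsj3 (-0.54) and Nop2 (-0.51) were next to Rrp1b (-0.52). Of the PeBoW complex, which acts in cutting the large subunit precursor, Pes1 (-0.45) and Bop1 (-0.30) were called, and Wdr12 was not (-0.27 ± 0.09, adjusted p = 0.112). The Bop1 call ended with the replicate block (adjusted p = 0.0524), with all 12 arrays in 1 fit (adjusted p = 0.0504) and with the mean over its probe sets (adjusted p = 0.149). Noc3l, the partner of Noc2l, read 8.73, 8.59 and 8.71 against 8.43, 8.46 and 8.63, with overlap (-0.17 ± 0.08, adjusted p = 0.23).

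The abundant nucleolar proteins differed among themselves. Nolc1, a chaperone of snoRNPs, read 11.36, 11.31 and 11.42 in DMSO and 10.57, 10.50 and 10.94 in MEKi, the second-largest fall of all members (-0.69 ± 0.11, adjusted p = 0.0103). Nucleolin, Ncl, read 13.08, 13.10 and 13.10 against 12.71, 12.66 and 12.89 (-0.34 ± 0.07, adjusted p = 0.0285). Of its 5 probe sets 4 were negative and the dimmest gave 0.07 ± 0.08 (adjusted p = 0.694). Nucleophosmin, Npm1, with the highest signal of the members, read 13.40, 13.50 and 13.46 against 13.29, 13.27 and 13.35 (-0.15 ± 0.06, adjusted p = 0.188), without overlap but not called. Mybbp1a (-0.54), nucleostemin Gnl3 (-0.43) and the helicase Ddx21 (-0.39) were called lower, which made 5 of 6.

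All 3 metabolic enzymes were called lower. Cad, which starts pyrimidine synthesis, read 9.58, 9.64 and 9.62 in DMSO and 9.01, 8.93 and 9.16 in MEKi (-0.58 ± 0.07, adjusted p = 0.00501). Odc1, the first enzyme of polyamine synthesis, read 12.47, 12.50 and 12.45 against 12.01, 12.06 and 12.18 (-0.39 ± 0.07, adjusted p = 0.0125). Spermidine synthase, Srm, gave -0.57 ± 0.11 (adjusted p = 0.0161). Over all 102 probe sets of the members, 99 were negative at 24 h, and of the 54 that were not the brightest 23 were called lower and 0 higher.

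**Figure D2:**
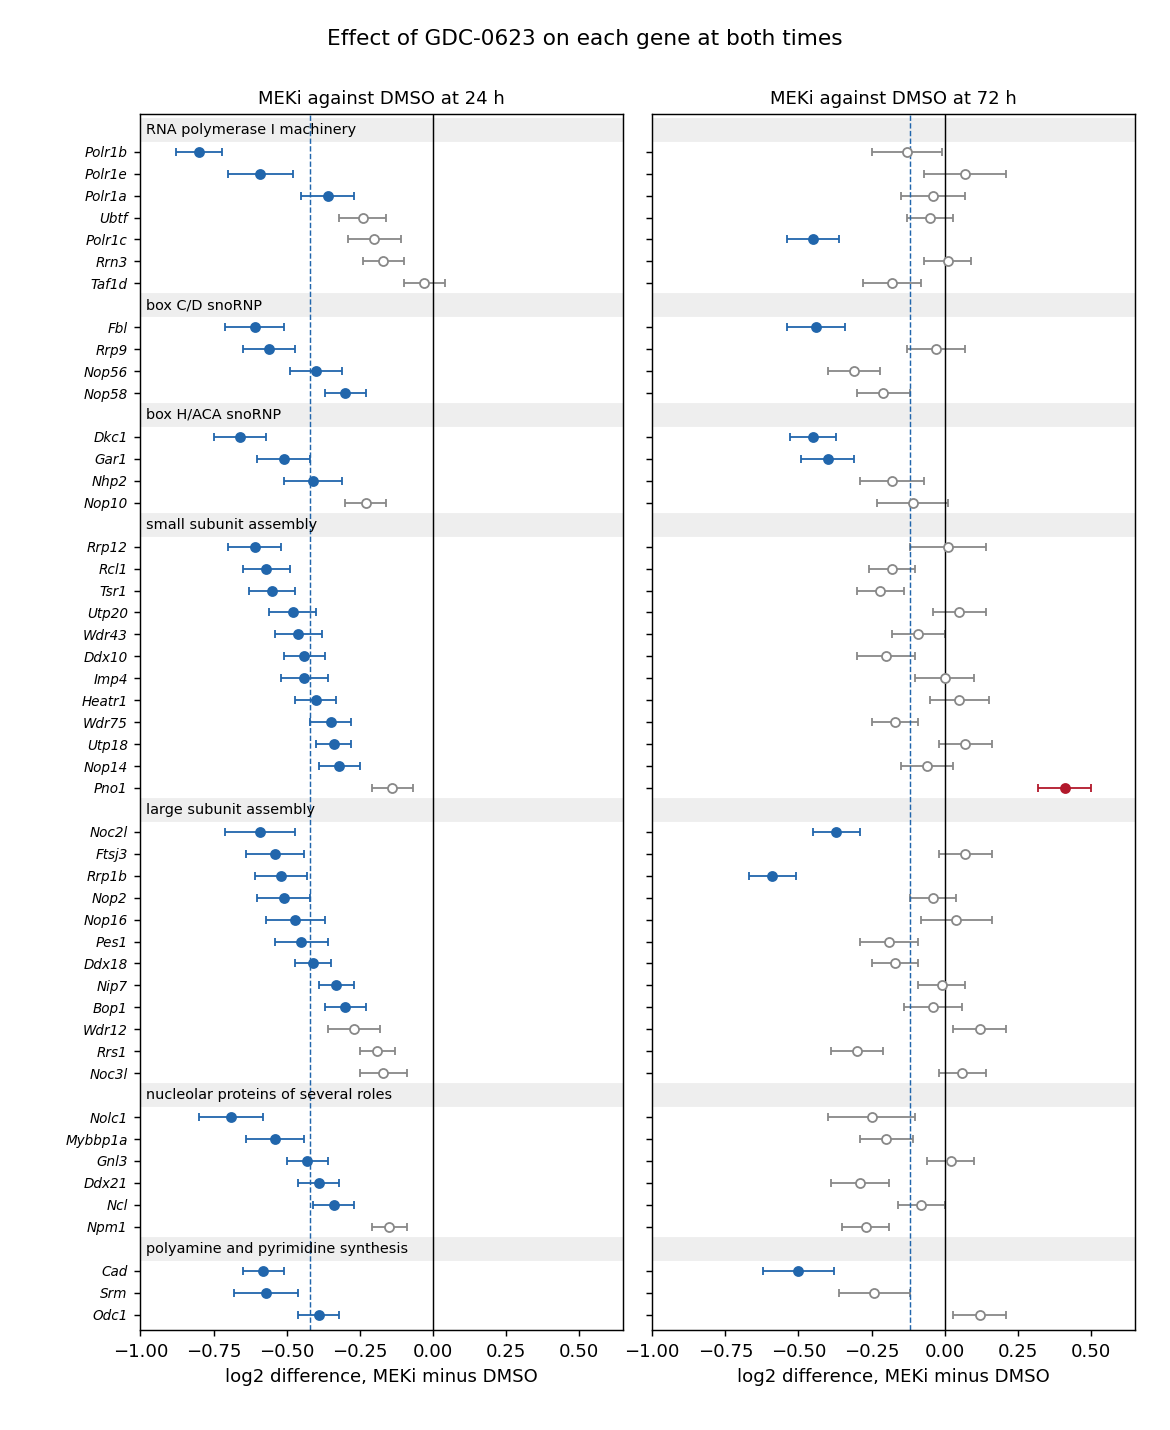
Points give each member's log2 difference, MEKi minus DMSO, at 24 h (left) and 72 h (right), with bars of 1 SE, grouped by role and ordered by the 24 h value. Filled blue points were called lower, the filled red point (Pno1) higher, open points were not called, and the dashed line is the members' median, -0.42 at 24 h and -0.12 at 72 h.

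By 72 h the distance between MEKi and DMSO had mostly closed. Only 7 members were called lower and 1 higher, where 5.14% of all genes were called lower and 4.03% higher, and the median log2 difference was -0.12 with 34 negative signs and 14 positive. All MEKi arrays lay below all DMSO arrays for 18 members, which 14.4% of all genes did. With only the 22514 brighter probe sets fitted, 2448 of them were called lower at 72 h, and 10 members were. Calls again changed with the array left out. The number lower was 2 without DMSO replicate 1, 3 without DMSO replicate 2, 2 without MEKi replicate 1 and 1 without MEKi replicate 2. It was 9 without DMSO replicate 3 and 5 without MEKi replicate 3, and 11 where all 12 arrays shared 1 fit. Rrp1b alone was called in every fit that left out 1 array. Over all probe sets lower calls in these fits ran from 853 to 1612, against 1913, and the members' median from -0.136 to -0.078.

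Rrp1b, a nucleolar protein of large subunit assembly, had the largest fall at 72 h. It read 8.58, 8.60 and 8.53 in DMSO and 8.04, 7.93 and 7.96 in MEKi, 2 groups with tight replicates and a wide gap (-0.59 ± 0.08, adjusted p = 0.0027). Cad read 8.53, 8.75 and 8.27 against 7.99, 8.10 and 7.97 (-0.50 ± 0.12, adjusted p = 0.0348), and was called in only 1 of 6 fits without 1 array. Its call also ended with the mean over its probe sets (-0.28, adjusted p = 0.137) and with a plain probe set, of the type not marked as shared between transcripts (-0.25, adjusted p = 0.522). Noc2l, with 8.66, 8.67 and 8.54 against 8.23, 8.25 and 8.27, was called lower too (-0.37 ± 0.08, adjusted p = 0.0215). Its other probe set went the opposite way at this time, and with the mean over both it was not called.

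Some snoRNP proteins kept a gap at 72 h. Dkc1 read 10.65, 10.76 and 10.55 in DMSO and 10.22, 10.20 and 10.20 in MEKi (-0.45 ± 0.08, adjusted p = 0.0123), and Fbl read 11.53, 11.71 and 11.45 against 11.03, 11.22 and 11.12 (-0.44 ± 0.10, adjusted p = 0.0235). Gar1 read 10.47, 10.59 and 10.44 against 10.01, 10.13 and 10.16 (-0.40 ± 0.09, adjusted p = 0.0215). All 8 snoRNP proteins had a negative sign, with 3 called. Fbl was called in only 1 of 6 fits without 1 array, Gar1 in 2 and Dkc1 in 4.

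Polr1c was the one member called lower at 72 h and not at 24 h. Its arrays read 10.59, 10.57 and 10.70 in DMSO and 10.07, 10.18 and 10.25 in MEKi (-0.45 ± 0.09, adjusted p = 0.0125), against -0.20 at 24 h, and the difference of these effects was not called (-0.25 ± 0.12, adjusted p = 0.352). None of the rest of the polymerase I group was called. Taf1d lay furthest from 0 among them (-0.18 ± 0.10, adjusted p = 0.371), with another of its probe sets of opposite sign. Polr1b read 8.09, 8.06 and 7.72 against 7.99, 7.71 and 7.77 (-0.13 ± 0.12, adjusted p = 0.609), and Polr1a 8.71, 9.02 and 8.65 against 8.75, 8.88 and 8.63 (-0.04 ± 0.11, adjusted p = 0.896). The groups of both genes overlapped. Rrn3, at 9.56, 9.62 and 9.63 against 9.63, 9.66 and 9.54, and Ubtf, at 9.60, 9.73 and 9.60 against 9.58, 9.57 and 9.62, overlapped as well, with log2 differences of 0.01 ± 0.08 and -0.05 ± 0.08.

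Small subunit assembly, the most uniformly lowered large group at 24 h, had 0 of 12 members called lower at 72 h and 6 of either sign. By limma without adjustment, Tsr1 alone of these was lower at a p under 0.05 (-0.22 ± 0.08, adjusted p = 0.155). Imp4 read 10.47, 10.72 and 10.55 in DMSO and 10.49, 10.68 and 10.58 in MEKi (0.00 ± 0.10), and Rrp12 7.08, 7.18 and 6.85 against 6.86, 7.31 and 6.98 (0.01 ± 0.13). Pno1 was higher in MEKi: it read 10.07, 10.23 and 10.05 in DMSO and 10.51, 10.65 and 10.42 in MEKi, 1.33-fold apart with no overlap (0.41 ± 0.09, adjusted p = 0.0284). It was not called without DMSO replicate 1 or 3 or without MEKi replicate 1 or 2. In the large subunit group Nip7, which acts late in the nucleolus, read 9.98, 10.04 and 9.85 against 9.97, 9.95 and 9.91 (-0.01 ± 0.08), also overlapping.

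Among the nucleolar proteins at 72 h, Ncl read 12.82, 12.77 and 12.71 in DMSO and 12.70, 12.72 and 12.65 in MEKi (-0.08 ± 0.08, adjusted p = 0.666). Npm1 was lower on every MEKi array, at 13.29, 13.25 and 13.30 against 13.04, 12.98 and 13.01, but did not pass (-0.27 ± 0.08, adjusted p = 0.0648). Odc1 read 11.82, 11.78 and 11.78 against 11.91, 12.03 and 11.79 (0.12 ± 0.09, adjusted p = 0.524), overlapping in part. In all, 6 members were called lower at both times, 32 at 24 h alone, 1 at 72 h alone and 9 at neither. Of the 34 with a negative sign at both, 29 had a value nearer to 0 at 72 h. Such joint counts were not made over all genes. Between the 24 h and 72 h log2 differences Pearson r was 0.283 over the members and 0.392 over all genes.

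**Figure D3:**
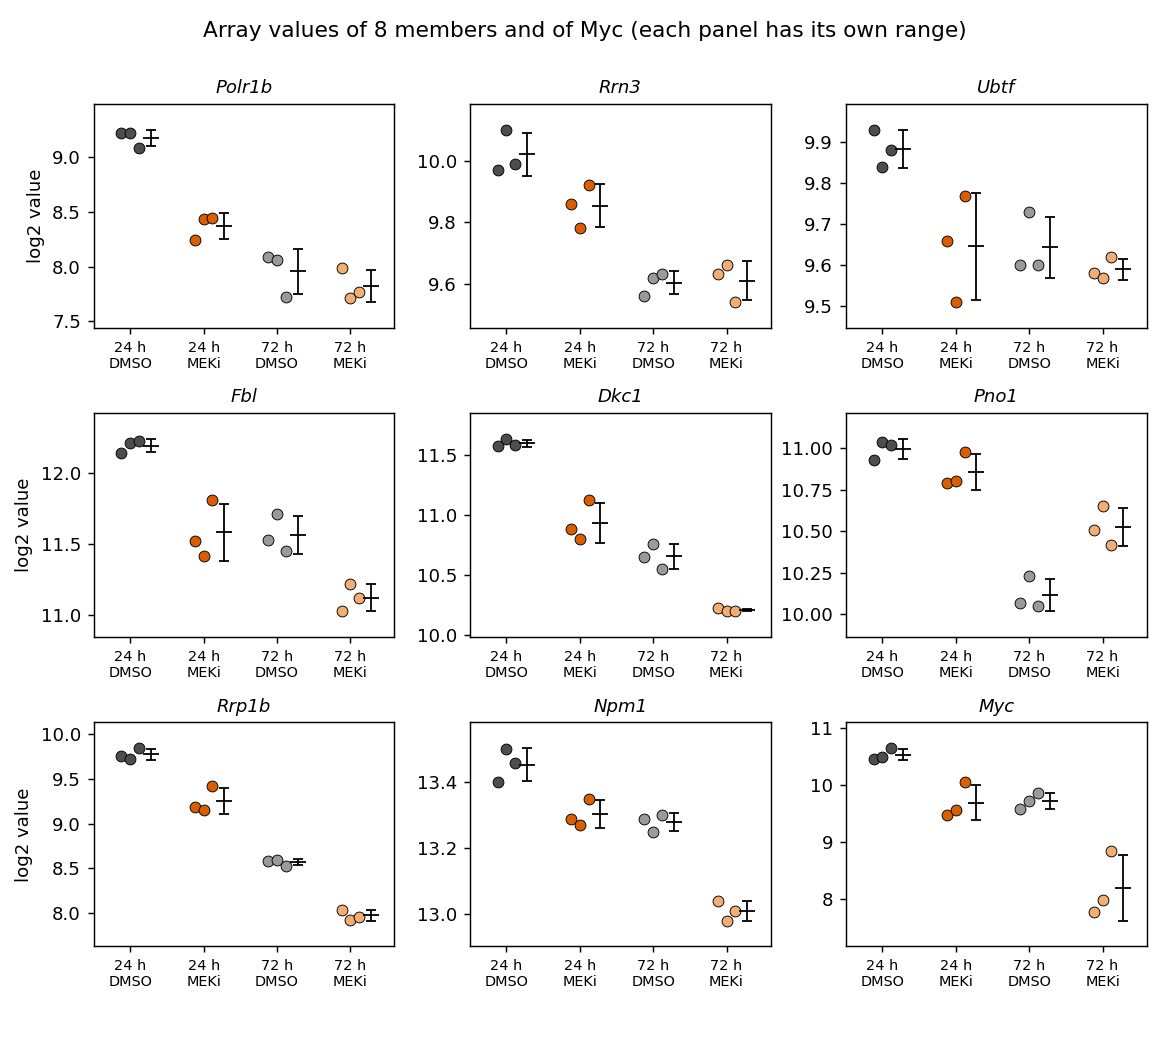
Array values on the log2 scale of 8 members and of Myc, with 3 points per group and, beside them, the group mean with bars of 1 SD. In Polr1b the 72 h groups lie together below 24 h MEKi, in Rrp1b and Dkc1 every group lies lower than the one before, and in Pno1 the 72 h MEKi arrays lie above the 72 h DMSO arrays.

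The closing gap was accompanied by a fall in the DMSO samples themselves. From 24 h to 72 h in DMSO 44 of 48 members were called lower and 0 higher (46 lower at an unadjusted p under 0.05), with a median log2 difference of -0.66. In that comparison 16.9% of all genes were called lower and 14.2% higher. It shares the DMSO arrays with both MEKi comparisons, so the values are given side by side and not as separate evidence. Removing any 1 array left 41 to 44 calls, and 41 members were called in every such fit. For 29 members all 72 h DMSO arrays lay below all 24 h MEKi arrays, which 20.5% of all genes did. With only the 22514 brighter probe sets fitted, 6813 of them were called lower in DMSO over time, and 45 members were.

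Rrp12 fell most in DMSO over time, from 8.35, 8.35 and 8.31 at 24 h to 7.08, 7.18 and 6.85 at 72 h (-1.30 ± 0.09, adjusted p = 7.95e-05). Heatr1, a large scaffold protein of the small subunit processome, read 9.86, 9.86 and 9.83 and then 8.51, 8.74 and 8.55 (-1.25 ± 0.08, adjusted p = 6.23e-05). Polr1b (-1.22 ± 0.11, adjusted p = 0.000158) and Rrp1b (-1.20 ± 0.07, adjusted p = 5.23e-05) completed the largest 4, each over 2-fold with arrays far apart. Polr1a gave -0.95, Fbl -0.63, Odc1 -0.68, Rrn3 -0.42, Ncl -0.33 and Ubtf -0.24, all called, though Ubtf not with the replicate block, a second quantile normalization or the mean over its probe sets. Not called were Nop14 (-0.22), Npm1 (-0.17), Polr1c (-0.07) and Taf1d (-0.03). Taf1d depends on the probe set, since its other 6 were all called lower here, from -0.39 to -1.37. A spiked-in labelling control differed between the times as well: the log2 signal of its 3' minus its 5' probe set was 1.96 to 2.16 on the 24 h arrays and 1.34 to 1.47 on the 72 h arrays. For the cell's own Gapdh this measure lay between -0.11 and -0.02 at both times, and the part of either in the results was not tested.

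Under MEKi the members fell further with time, but from a lower start. From 24 h to 72 h in MEKi 32 were called lower and 0 higher (37 lower at an unadjusted p under 0.05), with a median of -0.33, where 16% of all genes were called lower and 13.5% higher. Rrp1b went from 9.18, 9.15 and 9.42 to 8.04, 7.93 and 7.96 (-1.27 ± 0.09, adjusted p = 2.69e-05), as steep a fall as in DMSO. Cad went from 9.01, 8.93 and 9.16 to 7.99, 8.10 and 7.97 (-1.01 ± 0.08, adjusted p = 5.03e-05). Heatr1 went from 9.43, 9.35 and 9.58 to 8.65, 8.76 and 8.54 (-0.80 ± 0.09, adjusted p = 0.000231), and Bop1, of the PeBoW complex, from 10.21, 10.22 and 10.37 to 9.49, 9.57 and 9.44 (-0.77 ± 0.08, adjusted p = 0.000149). In each of these 4 genes the times did not overlap. Leaving out 1 array gave 24 to 28 calls, with 24 where 24 h MEKi replicate 3 was left out. With only the 22514 brighter probe sets fitted, 6615 of them were called lower in MEKi over time, and 34 members were.

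The difference of the MEKi effects, 72 h minus 24 h, was tested on all 12 arrays. It was positive for 43 members, with a median of 0.26, and 7 were called higher and 0 lower, where 1.97% of all genes were called higher and 2.1% lower. Polr1b led (0.67 ± 0.15, adjusted p = 0.0309), its MEKi effect moving from -0.80 to -0.13. Ftsj3 followed (0.61 ± 0.14, adjusted p = 0.0336): it read 8.95, 8.95 and 8.96 in DMSO and 8.28, 8.31 and 8.65 in MEKi at 24 h, and 8.19, 8.19 and 8.02 against 8.06, 8.27 and 8.27 at 72 h. Pno1 gave 0.55 ± 0.12 (adjusted p = 0.024). Utp20, a scaffold of the processome, gave 0.53 ± 0.12 (adjusted p = 0.0339), with 10.12 on each of the 3 DMSO arrays against 9.52, 9.62 and 9.78 in MEKi at 24 h, and 8.96, 9.09 and 8.83 against 8.96, 9.11 and 8.95 at 72 h. The others were Odc1 (0.51), Gnl3 (0.45) and Utp18 (0.41).

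These 7 calls are fragile, with 24 members higher at an unadjusted p under 0.05. With the replicate number as a block 12 were called higher, Gnl3 not among them (adjusted p = 0.0504). Utp18 was not called with arrays centred on their medians or with the mean over its probe sets. With only the 22514 brighter probe sets fitted, 1090 of them were called higher, and 14 members were. No member was called in every fit that left out 1 array. The number was 1, 0 and 0 without 24 h DMSO replicate 1, 2 and 3, 0, 0 and 13 without 24 h MEKi replicate 1, 2 and 3, 2, 12 and 2 without 72 h DMSO replicate 1, 2 and 3, and 5, 1 and 6 without 72 h MEKi replicate 1, 2 and 3. Over all probe sets higher calls in these fits ran from 275 to 772, against 612, and the members' median from 0.24 to 0.355. By role the median difference was 0.40 for small subunit assembly, 0.33 for the metabolic enzymes, 0.30 for the nucleolar proteins, 0.26 for large subunit assembly, 0.18 for polymerase I, 0.16 for box H/ACA and 0.13 for box C/D proteins.

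Promoter sequence was read for 42 of the 48 members from RefSeq (build GRCm38.p6), as the window from 250 bases before to 50 bases after each start, and searched on both strands for 3 sets of letters. The E-box CACGTG, the site MYC and its partner MAX bind, stood in 10 of 42 members (23.8%), against 10.2% of 14452 genes with a probe set and 8.09% of all 27025 genes. CCGGAA, the core bound by the ETS factors that act below ERK, stood in 18 (42.9%), against 24.1% and 16.7%. The TATA box TATAAA stood in 2 (4.76%), against 11.5% and 15.7%. By role the E-box was found in 6 of 11 small subunit members, 2 of 10 large subunit members, 1 of 7 polymerase I members (Rrn3, which has 2), 1 of 5 nucleolar proteins, and 0 of 9 snoRNP and metabolic members. Members with and without it gave like values at 24 h: 8 of 10 were called lower with a median of -0.46, and 26 of 32 with a median of -0.40. At 72 h 0 of 10 were lower and 1 higher (median -0.02), against 6 of 32 lower (median -0.15). These matches are descriptions and were not tested.

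To show what such a window looks like, the 250 bases before the start are given for the 3 members with the largest called fall at 24 h that hold an E-box there, and for Polr1b, the member with the largest fall, which holds neither the E-box nor the ETS core. Capitals mark those 2 motifs on either strand, in the direction of transcription.
Nop2 (chr6:125131633-125131882, + strand): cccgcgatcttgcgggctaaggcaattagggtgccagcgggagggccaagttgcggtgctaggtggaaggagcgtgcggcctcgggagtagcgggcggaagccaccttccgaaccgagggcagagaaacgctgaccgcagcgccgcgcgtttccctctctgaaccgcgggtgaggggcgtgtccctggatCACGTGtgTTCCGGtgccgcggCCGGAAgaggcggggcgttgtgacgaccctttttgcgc
Imp4 (chr1:34439579-34439828, + strand): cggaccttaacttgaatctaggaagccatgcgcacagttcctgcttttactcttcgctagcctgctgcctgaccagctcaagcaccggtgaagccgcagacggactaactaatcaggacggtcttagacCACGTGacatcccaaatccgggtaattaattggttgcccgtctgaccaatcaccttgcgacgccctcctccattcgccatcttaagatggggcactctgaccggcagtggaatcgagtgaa
Utp18 (chr11:93885767-93886016, - strand): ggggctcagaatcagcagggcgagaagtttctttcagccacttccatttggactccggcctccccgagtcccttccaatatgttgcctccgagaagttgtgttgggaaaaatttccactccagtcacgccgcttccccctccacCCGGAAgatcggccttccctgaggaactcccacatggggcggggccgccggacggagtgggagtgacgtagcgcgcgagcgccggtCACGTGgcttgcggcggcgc
Polr1b (chr2:129100746-129100995, + strand): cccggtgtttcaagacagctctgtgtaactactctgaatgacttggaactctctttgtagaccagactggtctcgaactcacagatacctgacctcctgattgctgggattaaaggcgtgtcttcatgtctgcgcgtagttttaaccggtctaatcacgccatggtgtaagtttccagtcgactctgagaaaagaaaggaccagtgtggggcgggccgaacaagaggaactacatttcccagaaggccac
Counted from the start as 0, the E-box begins at position -60 in Nop2, next to 2 ETS cores, at -121 in Imp4 and at -20 in Utp18. At 24 h the log2 differences of these genes were -0.51, -0.44 and -0.34. Polr1b (-0.80) was picked as the member with the largest fall, so setting it beside them is no comparison of the motifs.

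Myc itself was lower with MEKi at both times. Its arrays read 10.46, 10.50 and 10.65 in DMSO and 9.47, 9.57 and 10.05 in MEKi at 24 h, without overlap (-0.84 ± 0.14, adjusted p = 0.0119). At 72 h they read 9.58, 9.72 and 9.86 in DMSO and 7.77, 7.98 and 8.85 in MEKi, a larger gap with a wide MEKi group (-1.52 ± 0.23, adjusted p = 0.0047). Its difference of effects was negative but not called (-0.68 ± 0.31, adjusted p = 0.303), so the sign was opposite to that of 43 members. Mxd4, which competes with MYC for MAX, was the MYC network gene with the largest called rise at 24 h (1.05 ± 0.11, adjusted p = 0.0023). Of 13 MYC network genes 2 were lower and 2 higher at 24 h, and 1 of each at 72 h. Of all genes 5.86% were called lower and 5.01% higher at 24 h, and 5.14% lower and 4.03% higher at 72 h. The ERK output genes, a list of direct readouts of the pathway, had 11 of 16 lower at 24 h, and 8 lower and 1 higher at 72 h. Etv5, an ETS factor whose transcript depends on ERK, gave the largest fall of the ERK output genes at 24 h, from 8.86, 8.98 and 8.99 to 4.35, 4.22 and 6.08 (-4.06 ± 0.42, adjusted p = 0.00256), and again the third MEKi array was nearest to DMSO.

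Among further genes of the same pathways, listed by function and also with earlier results known, the share called lower at 24 h ranged widely. Of other small subunit assembly genes 24 of 41 were called lower and 0 higher (median -0.30), led by Pwp2 (-0.56 ± 0.09, adjusted p = 0.0113). Of other large subunit genes it was 27 of 45 and 0 higher (median -0.30), led by Ppan (-0.61 ± 0.11, adjusted p = 0.0153), and of other snoRNP genes 6 of 10 (median -0.35), led by Tcof1, the nucleolar treacle protein (-0.57 ± 0.10, adjusted p = 0.0119). Other polymerase I genes had 4 of 11 called lower (median -0.23), with Polr2h, a subunit shared by all 3 nuclear polymerases, at -0.38 ± 0.09. Polymerase III genes had 5 of 21 (median -0.12), and among them Polr3g stood out with 7.85, 7.89 and 7.74 in DMSO against 6.91, 6.93 and 7.17 in MEKi (-0.82 ± 0.09, adjusted p = 0.00275). Exosome and rRNA trimming genes had 6 of 24 (median -0.19), led by Pop1 (-0.50 ± 0.08).

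Calls were fewer among the ribosomal proteins, which assembly works on, though most were slightly lower in MEKi. Of the 44 cytosolic ribosomal protein genes with a probe set of their own, out of 79 listed, 4 were called lower and 0 higher at 24 h, with a median of -0.06 and Rpl14 the largest fall (-0.50 ± 0.09, adjusted p = 0.0155). The sign was negative for 38 of the 44, and for 28 all MEKi arrays lay below all DMSO arrays. Of all genes 5.86% were called lower at 24 h, and 18.3% had all MEKi arrays below all DMSO arrays. Their difference from the members was not tested. Nucleotide synthesis beyond Cad had 11 of 21 called lower (median -0.29), led by Ctps, which makes CTP (-0.62 ± 0.07, adjusted p = 0.00368). Polyamine genes beyond Odc1 and Srm had 1 lower, Atp13a3 (-0.29), and 1 higher, Atp13a2 (0.38), of 14. At 72 h the other small subunit, large subunit and snoRNP genes had 2 of 41, 4 of 45 and 3 of 10 called lower and 0 higher, with medians of -0.05, -0.08 and -0.18. At that time Imp3 (-0.44), Nop53 (-0.38) and Ruvbl2 (-0.53) led these lists, and Taf1b (-0.49) was the only 1 of 11 polymerase I genes called. Of the 44 ribosomal protein genes 2 were called lower at 72 h (median -0.08), with 40 negative signs, where 5.14% of all genes were called lower. For 30 of them all MEKi arrays lay below all DMSO arrays, which 14.4% of all genes did. Exosome and trimming genes had 4 of 24 lower at 72 h, led by Exosc8 (-0.66), nucleotide synthesis genes 4 of 21, polymerase III genes 1 lower and 1 higher of 21, and polyamine genes 1 lower and 2 higher of 14. In DMSO over time, where 16.9% of all genes were called lower and 14.2% higher, small subunit genes had 32 of 41 lower and 0 higher, large subunit genes 38 of 45 lower and 1 higher, snoRNP genes 8 of 10 lower and 0 higher, and ribosomal protein genes 3 of 44 lower and 1 higher.

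**Figure D4:**
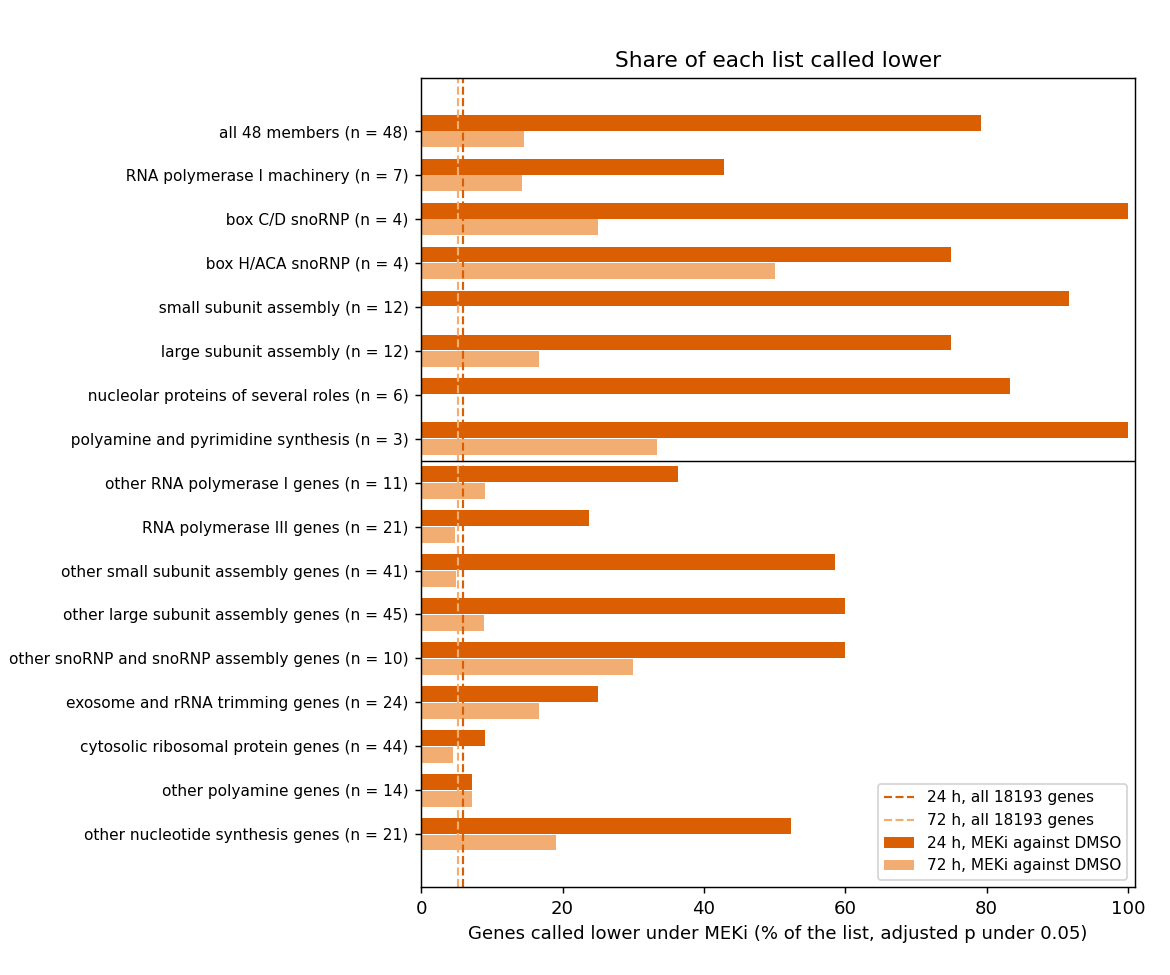
Bars give the percent of each list called lower in MEKi at 24 h (dark) and 72 h (light), with the number measured in brackets. Dashed lines give the share of all 18193 genes, 5.86% and 5.14%. Members stand above the black line and other genes of the pathways below it.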

How the data were processed

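RNA from the 12 samples was hybridized by the authors to Affymetrix mouse arrays, 1 per sample. The deposited values are log2 signals that, per the labels, the authors normalized by RMA; software versions are not given in the sources used here. Of 45101 probe sets, 64 controls were left out of tests. The platform annotation paired 34945 of the other 45037 with 1 gene, 932 with several and 9160 with none listed, and a gene's value was that of its brightest own probe set. Groups came from the sample titles.

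Each comparison was fitted with limma 3.58.1 (R 4.3.3) on its own 6 arrays without covariates, and the difference of effects on 12, two-sided, with Benjamini-Hochberg adjustment over 45037 probe sets. The script was tested on simulated data. The members, their roles and the other lists were chosen with earlier results of these data known. Named in full are, per MEKi comparison, the 8 called members with the largest and the 4 with the smallest difference, the 4 largest called members of the other comparisons, and Polr1a, Polr1b, Rrn3, Ubtf, Ncl, Npm1, Fbl, Odc1 and Myc. Of each other list, the largest called rise and fall per MEKi comparison could be named. The 3 members that hold an E-box and Polr1b were taken in order of their 24 h fall.

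Whether equal replicate numbers pair arrays was checked across probe sets, from the correlation of their deviations from the group means. Within a time, DMSO and MEKi arrays of the same number correlated at 0.073, 0.125 and 0.151 (24 h) and 0.189, 0.163 and 0.13 (72 h) over all probe sets, and at 0.207 to 0.307 over the brighter ones, so the blocked value is given where it changes a count. Alternatives were this block, 1 fit of all 12 arrays, brighter probe sets, centring, a second quantile normalization, a trended prior, averaging the probe sets of a gene, plain probe sets, and leaving out each array.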

Additional observations from a re-analysis of the deposited data

Results flagged for a closer look

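The MEKi effect differed between the 2 times, by the contrast on all 12 arrays in limma, for 7 members. The log2 difference, 72 h minus 24 h, was 0.67 for Polr1b, 0.61 for Ftsj3, 0.55 for Pno1, 0.53 for Utp20, 0.51 for Odc1, 0.45 for Gnl3 and 0.41 for Utp18. Of these, Pno1 was higher with MEKi at 72 h (0.41), and the other 6 had effects from -0.13 to 0.12 at that time. The adjusted p ran from 0.0208 (Odc1) to 0.049 (Utp18), and none of the 7 was called in every fit that left out 1 array.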

How the results depend on the processing

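The direction held for every called member in all 5 comparisons under each alternative, and no call reversed. Among values that were not called, the sign changed in 17 members at 72 h and in 1 to 5 members of the other comparisons. Counts of members lower at 24 h stayed between 33 and 43 under the alternatives that kept all arrays, and between 38 and 46 in DMSO over time. In MEKi over time they ran from 25 to 40, against 32. Leaving out 1 array gave 10 to 42 lower at 24 h, 1 to 9 lower and 0 to 1 higher at 72 h, and 0 to 13 higher in the difference, against 38, 7, 1 and 7. One fit of all 12 arrays gave 11 lower at 72 h. For the difference, 12 were higher with the replicate block, 14 with brighter probe sets only, 15 with the trended and robust prior, and 12 where the probe sets of a gene were averaged. Fewer arrays leave fewer degrees of freedom, and otherwise the cause was not tested.

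With the replicate block the counts were 36 lower at 24 h (Nop58 and Bop1 lost), 7 at 72 h, 43 in DMSO over time (Ubtf lost) and 29 in MEKi over time. Between the times, arrays of the same number correlated at -0.017 to 0.107 over all probe sets and at -0.015 to 0.202 over the brighter ones. MEKi arrays of unlike number reached 0.188 over the brighter ones, so a pairing in the last 2 comparisons was not established. Plain probe sets were not measured for 7 members. The number of arrays limits the precision.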
